A study of Mus musculus with 2 samples.

Results

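The immune checkpoint genes described here are 10 mouse genes, the receptors Pdcd1 (PD-1), Ctla4, Lag3, Havcr2 (TIM-3) and Tigit, the ligands Cd274 (PD-L1), Pdcd1lg2 (PD-L2), Cd80 and Cd86, and the nuclear factor Tox. They were taken by symbol from the 32285 genes listed for droplet single-cell RNA-seq of mouse liver, and each of the 10 symbols matched 1 gene ID. The question asked of them is how their RNA was spread over lymphocytes, myeloid cells, endothelial cells and hepatocytes, and how the levels differed between a wild-type liver and a liver without NgBR in hepatocytes.

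The series holds 2 libraries. One is labelled WT (genotype CTRL) and was made from liver. The other is N-LKO, in which albumin-Cre deletes loxP-flanked alleles of NgBR (gene symbol Nus1), and was made from liver plus tumor tissue. NgBR is a subunit of the cis-prenyltransferase that makes the lipid carrier for protein glycosylation, and the albumin promoter directs Cre to hepatocytes. Both groups were of the C57BL6 background and were on the diet for 16 weeks, named HFD in the titles and WD in the treatment labels. Hepatocytes and non-parenchymal cells were isolated apart and mixed in set proportions before loading, with tumor cells added for N-LKO. Mixing thus set the shares of these fractions at loading, but not the shares of cell types within the non-parenchymal fraction. Shares among the kept cells also depend on the filters and the naming, and are not shares in the liver. How many mice gave each library is not given in the sources used here. With 1 library per group there is no replicate and no test, and genotype, tumor tissue and library cannot be told apart. All intervals below are 95% intervals of counting error only.

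Checkpoint receptors sit on activated lymphocytes and dampen their response when they bind ligands on antigen-presenting cells, tumor cells or stroma. PD-1 binds PD-L1 and PD-L2, whereas CTLA-4 competes with the costimulatory receptor CD28 for CD80 and CD86. TOX is a chromatin-binding factor of developing and chronically stimulated T cells, where it maintains the program known as exhaustion, and it is also used by innate lymphoid cells. In liver, Kupffer cells, sinusoidal endothelium and dendritic cells present antigen to passing T cells and carry several of the ligands.

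In the GRCm38 annotation (GENCODE M21), Pdcd1 (ENSMUSG00000026285) lies at chr1:94038305-94052553 and Ctla4 (ENSMUSG00000026011) at chr1:60887000-60915832. Cd274 (ENSMUSG00000016496, chr19:29367455-29388095) and Pdcd1lg2 (ENSMUSG00000016498, chr19:29410919-29471161) are neighbours on the plus strand. Cd80 (ENSMUSG00000075122, chr16:38455561-38496335), Cd86 (ENSMUSG00000022901, chr16:36603869-36666081) and Tigit (ENSMUSG00000071552, chr16:43648867-43664146) share chromosome 16. Lag3 (ENSMUSG00000030124) is at chr6:124904361-124911705 and Havcr2 (ENSMUSG00000020399) at chr11:46454935-46481255. Tox (ENSMUSG00000041272, chr4:6686353-6991557) spans 305 kb and is longer than 97.8% of the genes matched, against a span of 7.35 kb for Lag3, the shortest member.

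After filtering, 18431 WT and 19855 N-LKO cells were kept, with a median of 1400 and 1455 UMIs, and 121 of their barcodes occurred in both libraries. Clusters were named from marker lists. Hepatocyte-like cells numbered 9923 in WT and 2099 in N-LKO, and lymphocytes 1271 and 1216, of which 1000 and 812 were T/NK-like, a class that joins T clusters with a small NK-led cluster (68 and 5 cells). Myeloid cells numbered 2883 and 6579, and endothelial-like cells 1860 and 1947. Clusters that carried markers of several types were left out of every class. Also left out was a cluster of 7 WT and 375 N-LKO cells whose best list was T, with Tox among its leading genes. So was a cluster of 3 and 121 cells whose best list was B. Both were left out only because they carried the leading genes of the Eda-led cluster described next. Together these mixed clusters held 6.73% of WT and 20.5% of N-LKO cells. A further cluster of 25 WT and 2476 N-LKO cells reached the naming score of no marker list and is called Eda-led after its leading gene. Its best list was hepatocyte, with a score of 0.15. Nus1 in hepatocyte-like cells was 73.1 CPM (UMIs per 1000000 UMIs of the same cells) in WT and 39.6 in N-LKO, and in T/NK-like cells 80.8 and 47.2. These counts come from the 3' ends of transcripts, so RNA of a deleted allele can still be counted and Nus1 is no check of the deletion.

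By level, Pdcd1, Tigit and Tox peaked in T/NK-like cells of both libraries, Havcr2 in dendritic-like cells and Cd274 in Kupffer/macrophage-like cells. Ctla4 was highest in plasma-like and T/NK-like cells, whose intervals overlapped in WT. Cd86 peaked in Kupffer/macrophage-like cells of WT and in dendritic-like cells of N-LKO. Tox was the most abundant in UMIs, with 2473 in WT and 8200 in N-LKO. Cd86 followed with 1946 and 3580, Cd274 with 814 and 1354, Havcr2 with 351 and 927, Ctla4 with 304 and 379, and Cd80 with 225 and 583. The rarest were Pdcd1 (60 and 121), Tigit (56 and 90), Lag3 (60 and 59) and Pdcd1lg2 (51 and 139). Of the WT Pdcd1 UMIs, 55% lay in lymphocytes and 18.3% in the mixed clusters, whereas in N-LKO these shares were 24.8% and 46.3%. Ctla4 showed the same shift, from 55.3% to 29.0% in lymphocytes and from 16.8% to 40.6% in mixed clusters. The myeloid share was steadier, at 51.0% and 59.9% for Havcr2, 50.4% and 56.2% for Cd274, 59.1% and 58.0% for Cd80, and 56.8% and 58.2% for Cd86. Lag3 differed from the other receptors in that 51.7% of its WT UMIs lay in hepatocyte-like cells, at 1.85 CPM beside a free RNA estimate of 1.80, and 45.8% of its N-LKO UMIs in myeloid cells. The level in the mixed clusters was 5.53 CPM for Pdcd1 and 25.6 for Ctla4 in WT, and 8.31 and 22.9 in N-LKO.

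**Figure D1:**
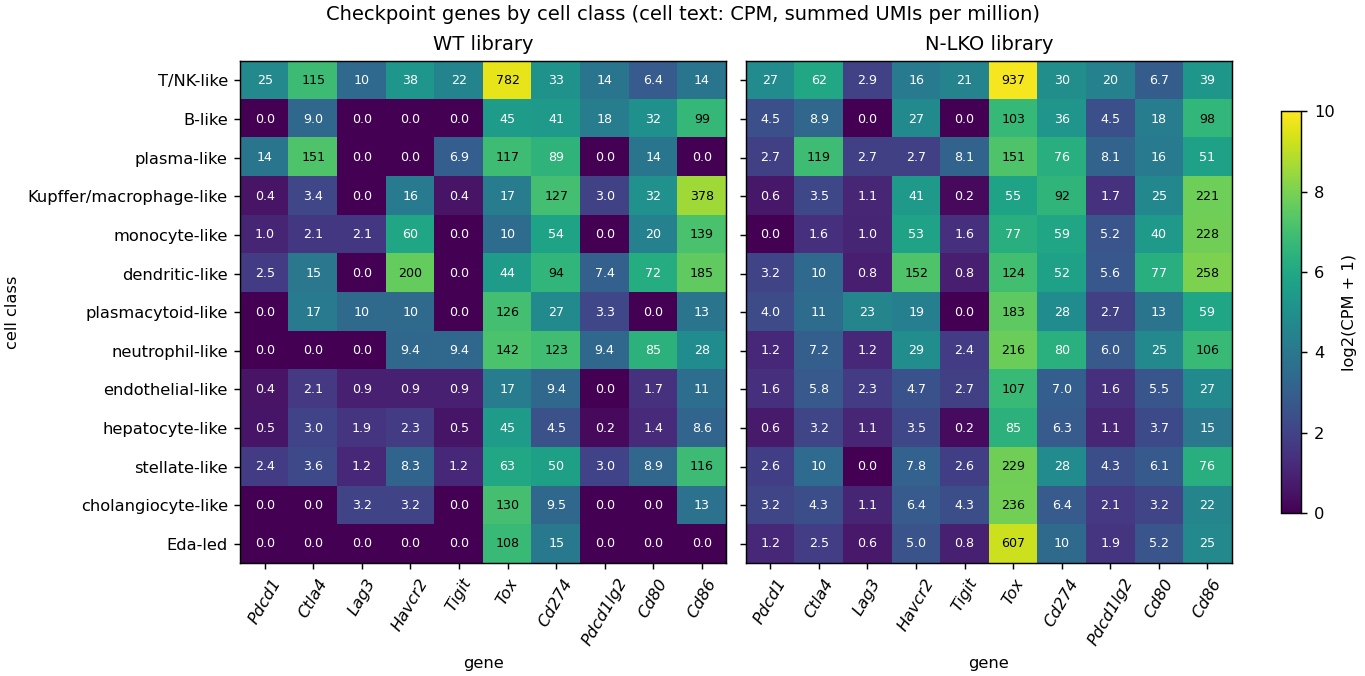
Level of the 10 checkpoint genes (columns) in 13 cell classes (rows) of the WT library (left) and the N-LKO library (right); color is log2(CPM + 1) and the number in each square is the CPM. Tox peaks in T/NK-like cells of both libraries and in the Eda-led cluster of N-LKO (607 CPM), Havcr2 in dendritic-like cells, and Cd86 across the Kupffer/macrophage-like, monocyte-like and dendritic-like classes.

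Pdcd1, the receptor for PD-L1, was near equal in T/NK-like cells of the 2 libraries at the main cell filter. It had 31 UMIs in WT, a level of 24.8 CPM (16.8 to 35.2), and 28 UMIs in N-LKO, 27.0 CPM (17.9 to 39.0). The log2 ratio of N-LKO over WT was 0.12 (-0.67 to 0.91), so a difference under about 2-fold either way was not detectable at this depth. Over 10 alternatives the ratio lay between -0.07 and 1.44. The value of 1.44, from cells with at most 10% mitochondrial UMIs, is outside that interval. The median mitochondrial share was 13.6% in the cluster of most WT T/NK-like cells and 21.7% in that of most N-LKO ones. With every cell thinned to 1000 UMIs, 2.40% of WT and 2.71% of N-LKO T/NK-like cells held a Pdcd1 UMI, a difference of 0.31 percentage points (-1.16 to 1.88). Endothelial-like cells, which should lack the gene, held one in 0.0538% and 0.103%, at median depths of 1171.5 and 1206 UMIs against 1159 and 1176.5 in T/NK-like cells. Before thinning the T/NK-like shares were 3.00% and 3.20%.

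By flow cytometry the study found more PD-1 positive CD8 T cells in livers of N-LKO mice fed HFD. Its single cells came from mice that the paper describes as fed WD. In those data it reported higher exhaustion and stress genes in N-LKO T cells. The nearest RNA measure here is the share of CD8 cells with a Pdcd1 UMI. T/NK-like cells with a Cd8a or Cd8b1 UMI and no Cd4 UMI numbered 192 in WT and 97 in N-LKO. A Pdcd1 UMI was seen in 8 of the WT cells, 4.17% (1.82 to 8.04), and in 4 of the N-LKO cells, 4.12% (1.13 to 10.2), after thinning. The difference was -0.04 points (-4.63 to 6.30), and the unthinned shares were 5.21% and 6.19%. These shares are of cells with RNA captured, not of cells with protein at the surface. CD4 cells were too few for a comparison, at 28 and 20, and a Foxp3 UMI was seen in 2 and 9 T/NK-like cells.

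Ctla4, which takes CD80 and CD86 from CD28, was lower in N-LKO T/NK-like cells. Its level was 115 CPM (97.1 to 136) in WT from 144 UMIs and 61.6 CPM (47.5 to 78.7) in N-LKO from 64 UMIs, a log2 ratio of -0.90 (-1.35 to -0.47). The share of cells with a Ctla4 UMI differed less, at 8.10% and 6.03% after thinning, and the interval of that difference, -4.41 to 0.34 points, includes 0. The lower level held in 11 of 11 alternatives, between -1.63 and -0.65. Cells with a CD3 or T cell receptor UMI had 135 and 68.2 CPM, a log2 ratio of -0.98 (-1.50 to -0.49). In CD8 cells the levels were 111 and 98.8 CPM, from 28 and 13 UMIs. Their log2 ratio of -0.14 (-1.24 to 0.83) includes 0, and their thinned shares were 7.81% and 11.3%. CD4 cells held only 3 and 6 UMIs, and cells with an NK receptor UMI and no CD3 UMI 1 and 3. In WT the 144 UMIs came from 96 cells, and 9 of them from 1 cell that also held Foxp3, the regulatory T cell factor. Most WT T/NK-like cells belonged to one cluster (803 cells, led by Gzma and Ccl5) and most N-LKO cells to another (675 cells, led by Gm2682 and Skap1). In the cycling T cell cluster that both libraries filled, with 91 and 52 cells, Ctla4 was 209 and 133 CPM, with a log2 ratio of -0.61 (-1.74 to 0.34). Ctla4 was also high in plasma-like cells, at 151 CPM (94.7 to 229) in WT and 119 (86.5 to 160) in N-LKO, where the interval of the log2 ratio, -1.11 to 0.46, includes 0.

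Havcr2, a receptor for galectin-9, was 37.6 CPM (27.6 to 49.99) in WT T/NK-like cells and 16.4 (9.54 to 26.2) in N-LKO, from 47 and 17 UMIs. The log2 ratio was -1.17 (-2.09 to -0.37). Its sign held in 10 of 11 alternatives. The exception was 0.60, from 22 and 5 UMIs, in cells with at most 10% mitochondrial UMIs. The direction thus depends on that filter, under which few UMIs were left. The thinned shares were 3.20% and 1.85%, a difference of -1.35 points (-2.83 to 0.14).

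Tigit, which competes with CD226 for nectins, was 21.6 CPM (14.2 to 31.4) in WT and 21.2 (13.3 to 32.1) in N-LKO T/NK-like cells, with a log2 ratio of -0.02 (-0.91 to 0.84). Lag3, a receptor for MHC class II and FGL1, had 12 UMIs in WT and 3 in N-LKO, and the interval of its log2 ratio reaches from below 0 to 0.16. None of the 5 receptors had a UMI in 829 of 1000 WT and 705 of 812 N-LKO T/NK-like cells. At least 2 of the 5 were seen in 32 WT cells, 3.20%, and in 13 N-LKO cells, 1.60%, counted without thinning. Summed over the 5 receptors, lymphocytes had 178 CPM (158 to 200) in WT and 118 (102 to 136) in N-LKO, with a log2 ratio of -0.59 (-0.86 to -0.32), against a median of -0.01 over all 12057 genes measured there. Ctla4 supplied 168 of the 288 WT UMIs and 110 of the 193 N-LKO UMIs of that sum.

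**Figure D2:**
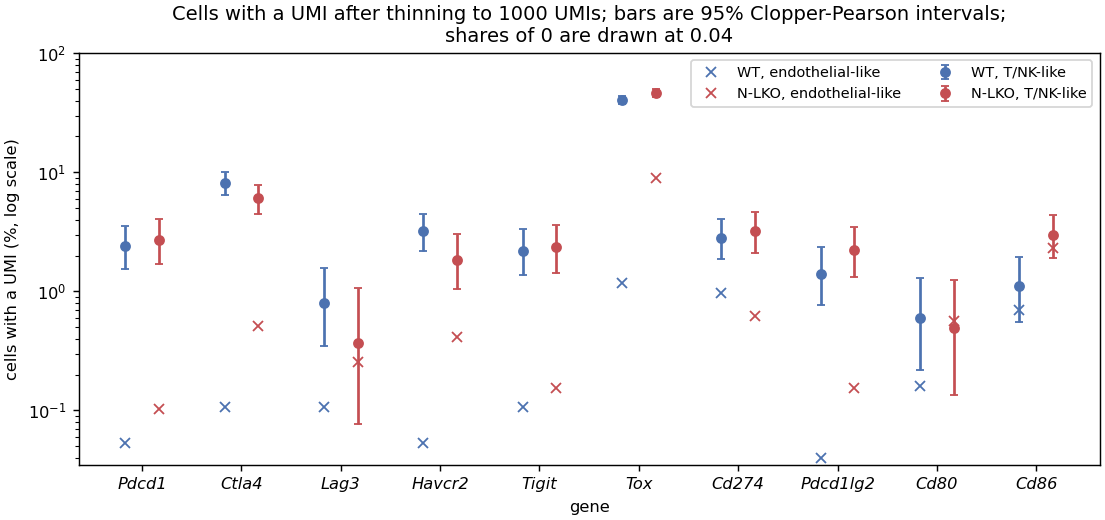
Percent of T/NK-like cells with at least 1 UMI of each checkpoint gene after thinning to 1000 UMIs (y axis, log scale; circles with 95% Clopper-Pearson intervals) and the same share in endothelial-like cells (crosses), WT in blue and N-LKO in red. The intervals of the 2 libraries overlap for each of the 5 receptors, and Tox stands far above at 40.4% and 46.7%.

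Across the 4 compartments, 10 members were measured in lymphocytes, 9 in myeloid cells, 6 in endothelial cells and 8 in hepatocytes, where measured means at least 10 UMIs over both libraries. In lymphocytes 1 member, Cd86, was higher in N-LKO by 2-fold or more, against 8.94% of all measured genes, and 1, Lag3, was lower, against 8.77%. Myeloid cells had 2 higher members, Tox and Lag3, with 8.51% of all genes, and 0 lower, with 6.10%. In endothelial cells 5 of 6 were higher, against 10.0% of all genes, and 0 lower, against 7.64%. Hepatocytes had 1 higher, Cd80, with 8.87% of all genes, and 0 lower, with 6.49%. The median log2 ratio of the measured members was -0.08 in lymphocytes, 0.12 in myeloid cells, 1.45 in endothelial cells and 0.59 in hepatocytes, beside -0.01, 0.00, 0.06 and 0.06 for all measured genes. Over the 10 named classes, 22 of the 64 measured pairs of a member and a class were past 2-fold, 19 of them higher and 3 lower in N-LKO, against 19.6% of all pairs of a gene and a class. Several of the 19 higher pairs rest on few UMIs, such as Ctla4 in endothelial-like cells with 5 and 15.

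**Figure D3:**
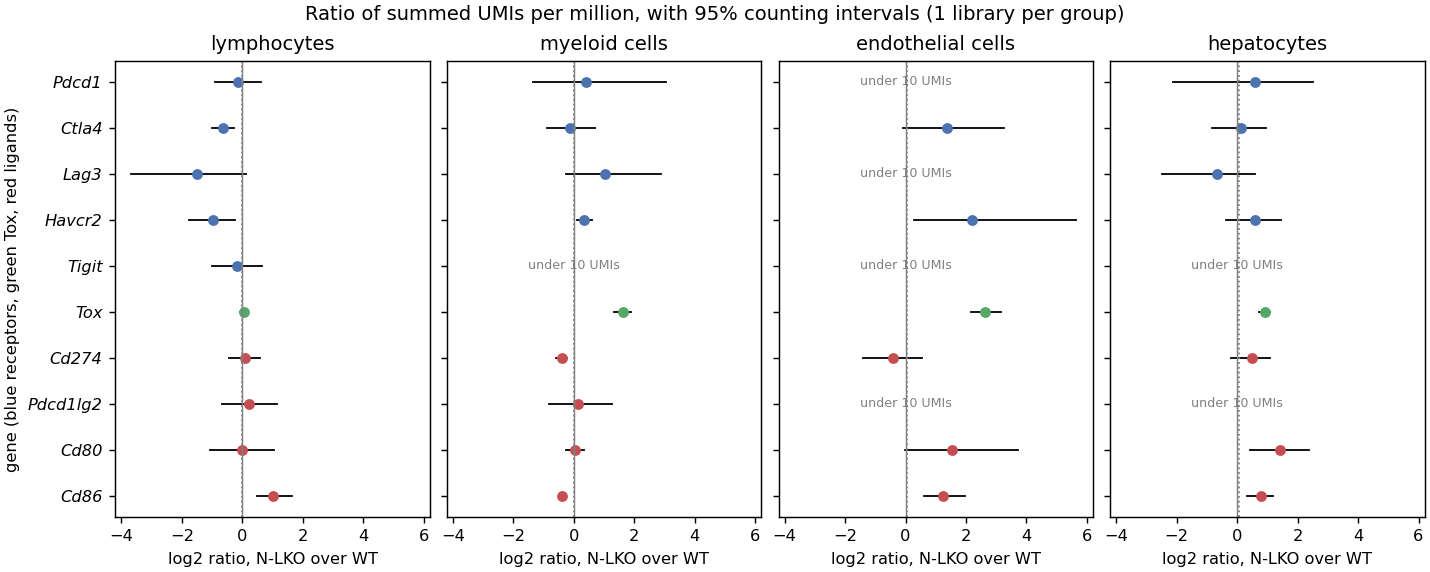
Log2 ratio of N-LKO over WT (x axis) for each checkpoint gene in the 4 compartments, with 95% counting intervals; blue marks receptors, green Tox, red ligands, and the dotted line is the median of all measured genes. Tox lies at 0.05 in lymphocytes but at 1.61 in myeloid cells, 2.63 in endothelial cells and 0.92 in hepatocytes, and Cd86 lies above 0 in every compartment but the myeloid cells.

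Tox was the highest checkpoint gene of T/NK-like cells in both libraries. It reached 782 CPM (734 to 833) in WT and 937 (879 to 998) in N-LKO, with a log2 ratio of 0.26 (0.13 to 0.39). A Tox UMI was seen in 40.4% and 46.7% of these cells after thinning, a difference of 6.27 points (1.69 to 10.8). The difference was no larger than that of other long genes: the 556 longest measured genes in T/NK-like cells, the top 5% by span, had a median log2 ratio of 0.49, and 379 of them were at or above Tox. CD8 cells had 1053 CPM in WT and 1255 in N-LKO, with an interval of the log2 ratio, -0.04 to 0.54, that includes 0. Cells with an NK receptor UMI and no CD3 UMI, 78 and 91 in number, had 461 CPM (334 to 621) and 914 CPM (746 to 1107), a log2 ratio of 0.98 (0.46 to 1.54).

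In the Eda-led cluster Tox reached 607 CPM (585 to 629) in 2476 N-LKO cells, 54.1% of which held a Tox UMI (39.6% after thinning). That is 2930 of the 8200 N-LKO Tox UMIs, or 35.7%, while T/NK-like cells held 11.9%. A CD3 or T cell receptor UMI was present in 54 of 1339 Eda-led cells with Tox (4.03%) and in 26 of 1137 without (2.29%), against 65.6% of N-LKO T/NK-like cells with Tox. In the 25 WT cells of the cluster Tox was 108 CPM (43.3 to 222). Tox was left out of the genes that built the clusters. The 12 markers of the T cell list summed to 44.7 CPM in N-LKO Eda-led cells, beside 1819 in N-LKO T/NK-like cells. Of hepatocyte genes, the N-LKO Eda-led cells had 3955 CPM of Alb, 2432 of Cps1 and 245 of Hnf4a. The main N-LKO hepatocyte-like cluster had 16384, 1780 and 174 CPM of these. Malat1 was 19656 CPM in the former and 4543 in the latter.

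Hepatocyte-like clusters varied widely in Tox. The main WT cluster (8141 cells) had 39.8 CPM (36.5 to 43.2), and 2 small WT clusters had 186 CPM (154 to 221, 323 cells) and 154 CPM (109 to 212, 159 cells). The cluster of 323 cells had 35409 CPM of Malat1, beside 8874 in the main WT cluster. A further WT cluster (1185 cells) had 13.9 CPM (8.47 to 21.4), below the 22.9 CPM of WT barcodes under 500 UMIs, which stand for free RNA. The main N-LKO cluster (1981 cells) had 82.8 CPM (74.5 to 91.7), below the 97.7 CPM of the N-LKO low barcodes. Over the whole class the levels were 44.8 and 84.7 CPM, a log2 ratio of 0.92 (0.74 to 1.10), and this turned to -0.59 in cells with at most 10% mitochondrial UMIs. Free RNA was estimated to give 19.8 and 40.6 CPM of these levels, and 86.6% and 41.5% of all UMIs of the class. The log2 ratio of what was left was 0.82, and -1.30 once it was scaled up to the UMIs left in each library. The direction for hepatocytes is therefore not settled by these counts.

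**Figure D4:**
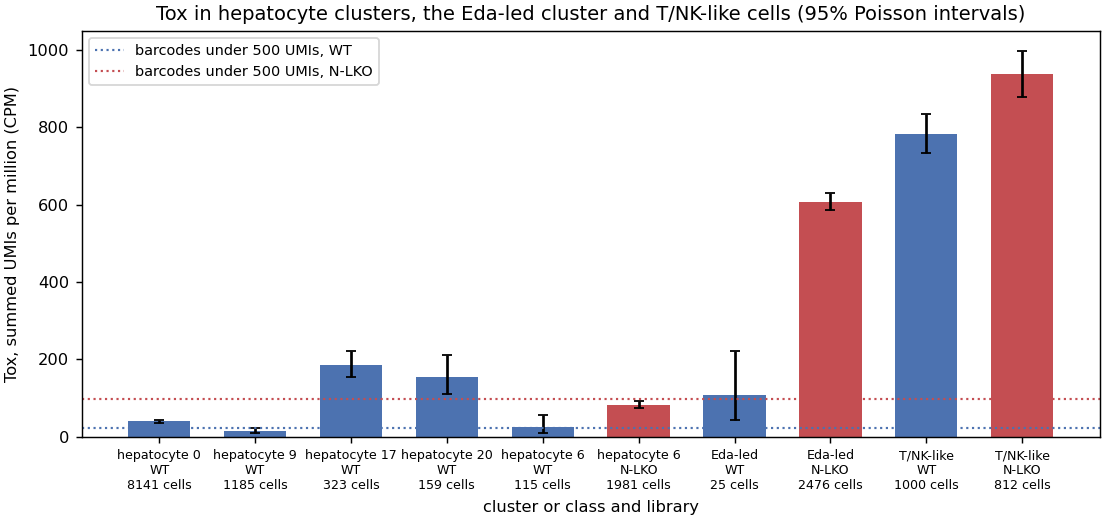
Tox level (y axis, CPM, bars from 0 with 95% Poisson intervals) in hepatocyte-like clusters, the Eda-led cluster and T/NK-like cells, WT in blue and N-LKO in red; dotted lines mark the Tox level of barcodes under 500 UMIs, 22.9 CPM in WT and 97.7 in N-LKO. The N-LKO Eda-led bar is at 607 CPM, the T/NK-like bars at 782 and 937 CPM and the highest hepatocyte-like bar at 186 CPM.

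In endothelial-like cells Tox was 17.1 CPM (12.2 to 23.3) in WT and 107 (94.8 to 121) in N-LKO, with a log2 ratio of 2.63 (2.16 to 3.16). Free RNA was estimated to give 11.7 and 50.2 CPM of these levels. The ratio was 0.75 when mixed clusters were counted in their best class, the lowest of 10 alternatives. Among the 639 longest genes measured there, 21 were at or above Tox, and their median was 0.39. Endothelial cells with Tox held a CD3 or T cell receptor UMI in 8 of 32 WT cells (25.0%) and 16 of 219 N-LKO cells (7.31%), against 1.15% and 2.60% of those without Tox. Myeloid cells had 29.6 CPM in WT and 90.6 in N-LKO, with free RNA estimates of 9.76 and 40.4 CPM, and a log2 ratio of 1.61 (1.34 to 1.90). Tox was higher in monocyte-like cells (10.46 and 76.7 CPM), stellate-like cells (63.2 and 229 CPM) and cholangiocyte-like cells (130 and 236 CPM) of N-LKO as well, each with an interval of the ratio above 0. The part of free RNA in these differences was not tested beyond the subtraction.

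Cd86, a ligand of CD28 and CTLA-4, was the leading ligand, and its difference between libraries ran in opposite directions in 2 neighbouring myeloid classes. Kupffer/macrophage-like cells had 378 CPM (354 to 404) in WT and 221 (208 to 233) in N-LKO, with a log2 ratio of -0.78 (-0.90 to -0.65), and 29.1% and 18.01% of cells held a UMI after thinning. Monocyte-like cells had 139 CPM (117 to 165) and 228 (207 to 250), a log2 ratio of 0.71 (0.43 to 1.00). Both directions held under each of the 10 alternatives tried for them. The clusters behind the names differed, however. WT Kupffer/macrophage-like cells were mostly a Clec4f-high cluster (1640 CPM of Clec4f, 1319 of 1590 cells), and N-LKO cells mostly one led by Mmp12 and Gpnmb (1139 and 687 CPM, 3118 of 3309 cells). The 161 WT cells of the latter had 2771 CPM of Mmp12 and 1225 of Gpnmb, so markers differed between libraries within it as well. There Cd86 was 284 CPM in WT and 226 in N-LKO, and the interval of the log2 ratio, -0.66 to 0.02, includes 0. Monocyte-like cells of WT were mostly one cluster led by Cd209a (727 cells, 134 CPM of Cd86) and those of N-LKO one led by F13a1 and Vcan (1213 cells, 177 CPM). The class also held a cluster led by Cxcl2, Tnf and Ccl4, with 2 WT and 170 N-LKO cells. In N-LKO that cluster had 1306 CPM of Cd5l and 800 of Mmp12, beside 163 and 63.5 in the F13a1 and Vcan cluster. Its part in the monocyte-like ratios was not tested.

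Dendritic-like cells had 185 CPM (146 to 232) of Cd86 in WT and 258 (230 to 287) in N-LKO, with a log2 ratio of 0.47 (0.11 to 0.86). In their Xcr1 cluster the levels were 159 and 298 CPM, a log2 ratio of 0.89 (0.40 to 1.44), and in their Ccr7 cluster 232 and 228 CPM, a log2 ratio of -0.04 (-0.56 to 0.55). The contrast of the 2 clusters was not tested. Over all myeloid cells Cd86 was 268 CPM in WT and 205 in N-LKO, with a log2 ratio of -0.39 (-0.49 to -0.28).

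Cd274, which encodes PD-L1, was lower in the N-LKO macrophage and dendritic classes. Kupffer/macrophage-like cells had 127 CPM (113 to 142) in WT and 91.9 (83.9 to 100.3) in N-LKO, with a log2 ratio of -0.47 (-0.68 to -0.26). Within the Mmp12 and Gpnmb cluster the levels were 225 CPM (173 to 289) in the 161 WT cells and 91.1 (82.9 to 99.9) in N-LKO, with a log2 ratio of -1.32 (-1.69 to -0.90). Dendritic-like cells had 93.8 and 51.7 CPM, a log2 ratio of -0.87 (-1.46 to -0.24), and within their Ccr7 cluster 218 CPM (149 to 308) and 79.1 (59.9 to 103), a log2 ratio of -1.47 (-2.11 to -0.79). Markers of the Ccr7 cluster differed too, with 409 CPM of Ccr7 in its 94 WT cells and 176 in its 508 N-LKO cells, 13.6 and 125 of Cd209a, and 61.3 and 289 of Ccr2, and their part in the Cd274 values was not tested. The Xcr1 cluster had little, 23.2 and 14.9 CPM. Monocyte-like cells were near equal at 54.4 and 59.1 CPM, with an interval of -0.37 to 0.62. PD-L1 RNA was also present in stellate-like cells, 50.05 CPM in WT and 27.7 in N-LKO, with a log2 ratio of -0.84 (-1.49 to -0.25), and was scarce in endothelial-like cells (9.43 and 7.01 CPM) and hepatocyte-like cells (4.54 and 6.28 CPM, with free RNA estimates of 4.67 and 4.02).

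Cd80, the other ligand of CD28 and CTLA-4, was highest in dendritic-like cells of N-LKO and, with overlapping intervals, in neutrophil-like and dendritic-like cells of WT. Dendritic-like cells had 71.6 CPM (48.0 to 103) in WT and 77.2 (62.6 to 94.1) in N-LKO, with a log2 ratio of 0.09 (-0.50 to 0.76). Monocyte-like cells, with the Cxcl2-led cluster among them, had 19.9 CPM (11.97 to 31.0) and 40.4 (32.0 to 50.5). Their log2 ratio was 1.00 (0.29 to 1.83). Neutrophil-like cells went the other way, from 84.9 CPM (38.8 to 161) in WT to 25.0 (15.5 to 38.3) in N-LKO, with a log2 ratio of -1.81 (-2.95 to -0.45), though the WT value rests on 9 UMIs in 75 cells. Pdcd1lg2, the gene for PD-L2, was the rarest ligand. It was seen in T/NK-like cells (17 and 21 UMIs), in Kupffer/macrophage-like cells (7 and 9 UMIs) and in monocyte-like cells, where 0 UMIs in WT allow up to 3.14 CPM and the 10 UMIs in N-LKO gave 5.18 CPM (2.49 to 9.53).

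Summed over the 4 ligands, myeloid cells had 403 CPM (384 to 423) in WT and 317 (306 to 328) in N-LKO, with a log2 ratio of -0.35 (-0.43 to -0.26). With each myeloid class given equal weight the ratio was -0.018. By class it was -0.67 in Kupffer/macrophage-like, 0.64 in monocyte-like, 0.13 in dendritic-like, 1.21 in plasmacytoid-like and -0.20 in neutrophil-like cells.

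**Figure D5:**
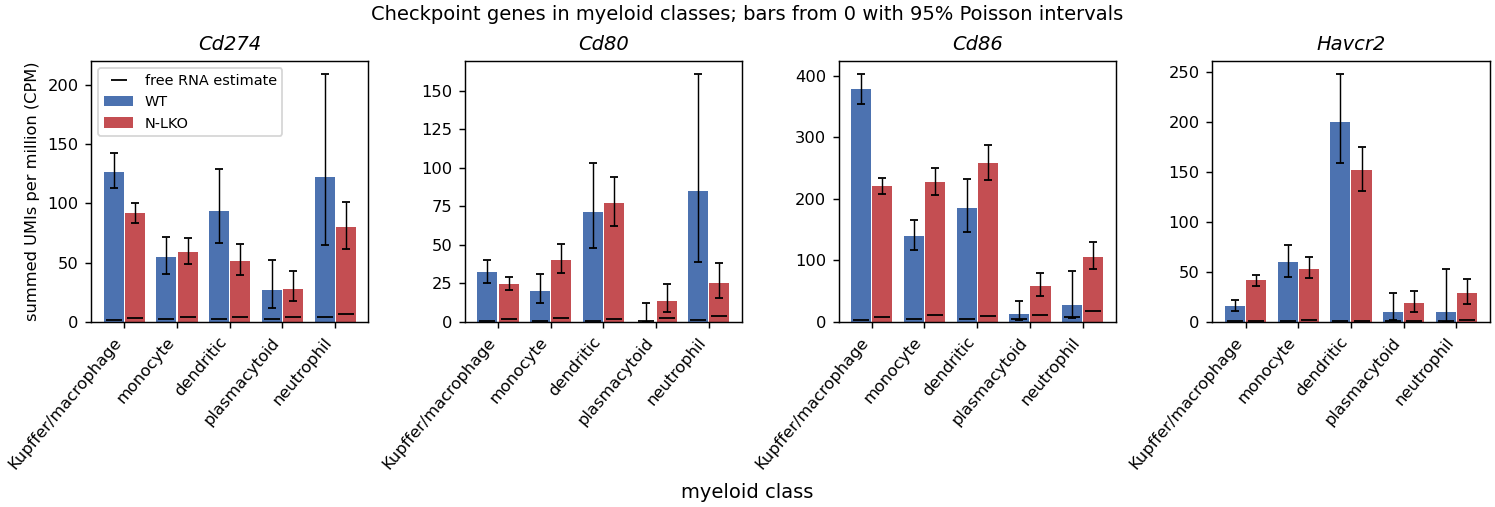
Cd274, Cd80, Cd86 and Havcr2 (one panel each; y axis, CPM, bars from 0 with 95% Poisson intervals) in the 5 myeloid classes, WT in blue and N-LKO in red; black dashes mark the free RNA estimate. Cd86 is lower in N-LKO Kupffer/macrophage-like cells (378 and 221 CPM) and higher in N-LKO monocyte-like cells (139 and 228 CPM), while Havcr2 peaks in dendritic-like cells (200.03 and 152 CPM).

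Havcr2, counted above among the T cell receptors, was mainly a myeloid gene in these libraries. Dendritic-like cells had 200.03 CPM (159 to 249) in WT and 152 (131 to 175) in N-LKO, with a log2 ratio of -0.40 (-0.78 to -0.0035) that turned to 0.70 with a minimum of 2000 UMIs per cell and to 0.079 with at most 10% mitochondrial UMIs. Their Xcr1 cluster had 271 and 246 CPM, with an interval of the log2 ratio of -0.57 to 0.30. Monocyte-like cells had 59.6 and 53.4 CPM, with an interval of -0.64 to 0.33. Kupffer/macrophage-like cells differed, with 15.7 CPM (11.1 to 21.7) in WT and 41.5 (36.2 to 47.3) in N-LKO, with a log2 ratio of 1.38 (0.89 to 1.94) that lay between 0.81 and 1.99 over 10 alternatives. In the Mmp12 and Gpnmb cluster alone the levels were 18.2 and 42.3 CPM, with an interval of the log2 ratio of -0.03 to 2.86. Lag3 among myeloid cells was mostly in plasmacytoid-like cells, with 3 UMIs in WT and 17 in N-LKO, or 9.98 and 22.7 CPM. That log2 ratio of 1.01 has an interval of -0.60 to 3.60.

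Ligand RNA in lymphocytes was low. B-like cells carried Cd86 at 99.5 CPM (62.3 to 151) in WT and 98.1 (61.5 to 149) in N-LKO, with a log2 ratio of -0.02 (-0.94 to 0.90). In T/NK-like cells Cd86 was 13.6 CPM (7.92 to 21.8) and 38.5 (27.5 to 52.5), a log2 ratio of 1.48 (0.65 to 2.41), where free RNA was estimated at 5.67 and 14.8 CPM. With free RNA subtracted that ratio was 1.63, the highest of 9 alternatives. Macrophage marker sums were higher in N-LKO T/NK-like cells as well, though by a smaller factor than Cd86. The 13 markers of the monocyte or macrophage list, of which Chil3 was at 0 in WT, summed to 434 CPM in WT and 571 in N-LKO. The 8 Kupffer markers, with Cd163 at 0 in N-LKO, summed to 227 and 423 CPM. In plasma-like cells 0 UMIs in WT, which allow up to 20.6 CPM, stood against 19 in N-LKO, 51.4 CPM (30.9 to 80.2). The macrophage list there summed to 309 and 592 CPM. The part of macrophage RNA in these Cd86 values was not tested.

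Endothelial cells held few checkpoint UMIs. The 4 ligands summed to 22.3 CPM (16.6 to 29.2) in WT and 40.9 (33.4 to 49.5) in N-LKO, with a log2 ratio of 0.87 (0.38 to 1.38), with free RNA estimates of 8.68 and 21.4 CPM. Cd86 was 11.1 and 26.9 CPM, from 26 and 69 UMIs, a log2 ratio of 1.25 (0.60 to 1.98). The macrophage list in the same cells was 105 CPM in WT and 321 in N-LKO, with each of its 13 markers present in both. Ctla4 had 5 and 15 UMIs, Havcr2 2 and 12, and Cd80 4 and 14. The higher counts of T cell and macrophage members in N-LKO endothelial cells thus stood beside higher macrophage and T cell list sums (26.1 and 61.1 CPM for the T list), and the part of those transcripts was not tested.

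Hepatocytes had the lowest ligand level, 14.7 CPM (12.9 to 16.6) in WT and 25.8 (21.4 to 30.8) in N-LKO, with a log2 ratio of 0.81 (0.48 to 1.13). The free RNA estimate was 14.7 CPM in WT, the whole of the level, and 17.3 in N-LKO. Cd86 was 8.60 CPM (7.25 to 10.1) and 14.7 (11.4 to 18.7), beside free RNA estimates of 8.91 and 10.6. Cd80 was 1.37 CPM (0.871 to 2.06) and 3.68 (2.15 to 5.90) from 23 and 17 UMIs, beside estimates of 1.17 and 2.11. The summed ligands of WT hepatocytes thus did not rise above the free RNA estimate. That estimate was scaled on immune markers and came from barcodes that were not shown to be empty. It therefore cannot tell whether hepatocytes made ligand RNA themselves.

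Among the 10 genes for binding partners of the members, Fgl1, a secreted ligand of LAG-3 made by hepatocytes, was 46.8 CPM in WT hepatocyte-like cells and 242 in N-LKO, with a log2 ratio of 2.37 (2.24 to 2.50) and free RNA estimates of 24.7 and 71.0 CPM. In N-LKO lymphocytes, myeloid cells and endothelial cells Fgl1 stood at 91.9, 74.3 and 84.9 CPM, near the free RNA estimates of 93.9, 70.7 and 87.8. Lgals9, which encodes the TIM-3 ligand galectin-9, had lower levels in N-LKO hepatocytes (502 and 332 CPM, log2 ratio -0.60), myeloid cells (336 and 180.5 CPM, -0.90) and lymphocytes (352 and 165 CPM, -1.09), where free RNA was estimated at 445, 219 and 283 CPM of the WT values and at 86.1, 85.7 and 114 CPM of the N-LKO values. In hepatocytes the WT level was thus largely within its free RNA estimate, and the direction there is not settled. In lymphocytes and myeloid cells too the estimate made up most of the WT level. The part of free RNA in the lower Lgals9 levels there was not tested. Lgals3, for galectin-3, was higher in N-LKO myeloid cells, at 380 and 601 CPM, with a log2 ratio of 0.66 (0.58 to 0.74). Clec4g, for the LAG-3 ligand LSECtin of sinusoidal endothelium, was lower in N-LKO endothelial cells, at 614 and 409 CPM, with a log2 ratio of -0.59 (-0.70 to -0.47). Cd28 in lymphocytes was near equal at 103 and 107 CPM, with an interval of -0.27 to 0.36. The partners higher in N-LKO by 2-fold or more were 3 of 9 measured in lymphocytes (Lgals3, Fgl1 and Nectin2), 1 of 10 in myeloid cells (Fgl1), 3 of 10 in endothelial cells (Fgl1, Lgals3 and Cd28) and 2 of 10 in hepatocytes (Fgl1 and Lgals3), against 8.94%, 8.51%, 10.0% and 8.87% of all measured genes. In lymphocytes 1 was lower, Lgals9, against 8.77%. The medians of the list were 0.22, 0.42, 0.29 and -0.07 in that order, beside -0.01, 0.00, 0.06 and 0.06 for all measured genes. Genes given in these counts for being past 2-fold, here and in the next lists, were chosen after their values were seen. Several rest on few UMIs, such as Cd28 in endothelial cells (2 and 8). Others are Cd160 (1 and 14) and Tnfsf4 (1 and 9) in myeloid cells.

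Among 19 other inhibitory receptors and ligands, 3 of 16 measured were higher in lymphocytes (Sirpa, Lair1 and Cd200), 5 of 18 in myeloid cells (Nt5e, Cd276, Adora2a, Vtcn1 and Cd160), 6 of 12 in endothelial cells and 2 of 17 in hepatocytes (Vtcn1 and Cd276), beside the shares of all genes given above (8.94%, 8.51%, 10.0% and 8.87%). Klrg1 in lymphocytes and Cd96 in hepatocytes were lower, with 8.77% and 6.49% of all genes. The medians were 0.32, 0.33, 0.91 and 0.49. Vsig4, a complement receptor of Kupffer cells that restrains T cells, was 628 CPM in WT and 424 in N-LKO myeloid cells, a log2 ratio of -0.57 (-0.64 to -0.49). Vsir, for the checkpoint molecule VISTA, was 47.6 and 82.9 CPM there, a log2 ratio of 0.80 (0.58 to 1.03). Btla, a receptor for the TNF receptor family member HVEM, was 93.4 and 123 CPM in lymphocytes, a log2 ratio of 0.39 (0.08 to 0.71).

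Of the 15 costimulatory genes, 0 of 11 were past 2-fold in lymphocytes, while 3 of 13 were higher in myeloid cells (Tnfsf9, Cd2 and Tnfsf4), 5 of 8 in endothelial cells (Cd48, Tnfrsf9, Cd27, Cd2 and Cd40) and 4 of 10 in hepatocytes (Cd2, Tnfrsf9, Tnfrsf4 and Icosl), where 8.51%, 10.0% and 8.87% of all measured genes were. The medians were -0.22, 0.03, 1.503 and 0.43. Cd226, the activating counterpart of TIGIT, was 301 CPM in WT lymphocytes and 254 in N-LKO, with a log2 ratio of -0.24 (-0.44 to -0.05). Cd2, the receptor for CD48, was 70.5 and 43.5 CPM in lymphocytes, a log2 ratio of -0.69 (-1.15 to -0.26), and Icos was 71.1 and 75.4 CPM.

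The 15 factors of T cell exhaustion and activation had 1 of 15 higher in lymphocytes (8.94% of all genes), Nr4a3, an early response factor downstream of the T cell receptor, at 12.4 and 61.9 CPM, a log2 ratio of 2.29 (1.62 to 3.09). In myeloid cells 6 of 15 were higher (8.51% of all genes), in endothelial cells 5 of 13 (Tox2, Prdm1, Nr4a3, Cxcr6 and Tcf7, beside 10.0%) with Id2 lower (beside 7.64%), and in hepatocytes 2 of 14 (Irf4 and Nr4a3, beside 8.87%). The medians were 0.08, 0.52, 0.94 and 0.39. Prdm1, for Blimp-1, was 58.1 CPM in WT lymphocytes and 83.3 in N-LKO, with a log2 ratio of 0.52 (0.13 to 0.91), and Irf4 was 37.7 and 58.2 CPM, a log2 ratio of 0.62 (0.15 to 1.11). Cxcr6, a chemokine receptor gene of liver-resident lymphocytes, was 101 and 82.7 CPM, with an interval of -0.63 to 0.04.

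Of the 6 regulatory T cell genes, 1 of 5 measured was higher in lymphocytes (8.94% of all genes), Foxp3, with 2 UMIs in WT and 11 in N-LKO and a log2 ratio of 2.19 (0.25 to 5.66). In myeloid cells Foxp3 was higher and Il2ra lower (8.51% and 6.10% of all genes), and in endothelial cells and hepatocytes Ikzf2 alone was measured and was within 2-fold. The medians were 0.23, 0.27, 0.49 and 0.12. Of the 9 genes of the interferon gamma axis, which induces PD-L1, and of PD-L1 stability, 0 were past 2-fold in any compartment, with medians of -0.14, -0.12, 0.13 and 0.01. In myeloid cells, where Cd274 was lower, the interferon factor gene Irf1 was 102 and 64.3 CPM, a log2 ratio of -0.67 (-0.85 to -0.49). Cmtm6, which keeps PD-L1 at the cell surface, was 19.2 and 25.7 CPM in lymphocytes.

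Genes with the most similar pattern were sought over 24 points, each a cell class in a library, by Pearson correlation of log levels. These values describe the classes, share depth and library, and carry no test. Pdcd1 was nearest to Ifngas1 (r = 0.87) and the T cell factor gene Eomes (0.85), Ctla4 to Lef1 (0.90) and Cd3e (0.89), and Tigit to Tcrg-C4 (0.88). Havcr2 was nearest to Sh3bp1 (0.91), with the dendritic cell integrin gene Itgax at 0.90. Cd86 and Cd80 shared Cd83 as nearest gene (0.97 and 0.90), and Cd86 was followed by H2-Aa (0.92) of MHC class II. Cd274 was nearest to Ncf4 (0.93), Pdcd1lg2 to Tbx21 (0.85) and Lag3 to Itgad (0.78). Tox was nearest to Rnf43 (0.88), a Wnt pathway ubiquitin ligase gene, and then to the T cell gene Themis (0.86).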

How the data were processed

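Single cells of mouse liver were measured by droplet RNA-seq (10x 3' chemistry) in 2 libraries. The values are UMI counts per gene and barcode as deposited by the authors. The file headers name Cell Ranger 7.1.0, and the submitters' processing notes name Seurat and the build mm9. Whether intronic reads were counted is not given in the sources used here. Gene positions and spans come from GENCODE M21 (GRCm38), matched by gene ID, and bear on no count. The deposited barcodes start at 326 (WT) and 377 (N-LKO) UMIs.

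Barcodes with at least 1000 UMIs, at least 400 genes and at most 30% mitochondrial UMIs were kept, and those with a Scrublet score above 0.25 were removed (8.57% in WT and 10.6% in N-LKO). Cells were clustered in scanpy 1.11.5 on 2000 variable genes without the 10 members (30 components, 20 neighbours, Leiden 0.10.2 at resolution 0.3, and 0.5 within lymphoid and myeloid cells) and named from 16 marker lists. The score limits for naming (0.3) and for mixed clusters (0.2) were set after the data were seen. The leading genes of the Eda-led cluster, taken from these same data, served as an added list. Clusters that reached 0.3 on that list were called mixed as well. Since the study's own cell annotation was not used, a difference from the study may come from the rebuilt names.

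UMIs were summed per class and library. Levels are CPM with exact Poisson intervals, ratios have exact conditional binomial intervals with 0.5 UMI added to both counts for the point value, and shares of cells have Clopper-Pearson intervals, their differences Newcombe intervals, after thinning each cell to 1000 UMIs. All kept cells reached 1000 UMIs, so none was left out by thinning. The free RNA profile came from barcodes under 500 UMIs, which were not shown to be empty, and its share in a class was the median, over hepatocyte markers (immune markers for hepatocytes), of their level in the class over that in the profile, at most 1. A gene was called measured with 10 UMIs over both libraries and past the fold at 2-fold, and for a library with 0 UMIs the floor was 3 UMIs. Named were all 10 members, from each of 6 gene lists the 6 measured genes with most UMIs per compartment (a choice of these is given), and for likeness the 3 genes of highest Pearson r, over points of at least 100 cells and genes of at least 50 UMIs. The members and lists were chosen with earlier results of these data known. The intervals were tried on simulated Poisson counts, the kind of error that they assume. A first limit on their coverage was not met and was replaced by one that allows for the number of genes. The simulation held no variation between cells or libraries, so it cannot show how the intervals do under either. No sequences of the members are shown. Alternatives were other UMI and mitochondrial limits, no doublet removal, marker-gated cells, free RNA subtraction, equal class weights and, chosen after seeing the data, 3 changes of cluster membership and a free RNA subtraction without scaling up the rest to the UMIs left.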

Additional observations from a re-analysis of the deposited data

Results flagged for a closer look

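Havcr2 differed in opposite directions between cell classes. Its log2 ratio of N-LKO over WT was 1.38 in Kupffer/macrophage-like cells and -1.17 in T/NK-like cells, a gap of 2.56, with the counting interval above 0 in 2 classes and below 0 in 2. The T/NK-like value turned direction in cells of low mitochondrial share. Cd80 was higher in N-LKO hepatocyte-like cells (1.43, from 23 and 17 UMIs near the free RNA level) and lower in neutrophil-like cells (-1.81, from 9 and 21 UMIs), a gap of 3.24, with intervals above 0 in 2 classes and below 0 in 1. Cd86 was higher in N-LKO plasma-like cells and lower in Kupffer/macrophage-like cells (-0.78). The gap of 4.72 uses a fitted ratio of 3.94 for plasma-like cells, whose WT library had 0 Cd86 UMIs, so it depends on the added count and is no bound. Its intervals lay above 0 in 8 classes and below 0 in 1. None of these differences between classes was tested, since each group has 1 library.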

How the results depend on the processing

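Of 1012 values of 107 log2 ratios under the alternatives, 914 stayed within the counting interval of the reported value, 90 lay outside it, and 8 turned the direction of a ratio whose interval excluded 0. No paired analysis was possible because each group has 1 library and the groups share 1 replicate number. With a minimum of 2000 UMIs per cell, the summed receptors in lymphocytes were at -1.16, the summed ligands in endothelial cells at 2.57 (from 1 and 22 UMIs) and in hepatocytes at 1.26. The summed ligands in T/NK-like cells turned to -1.07 (12 and 5 UMIs), Havcr2 in dendritic-like cells to 0.70 and the summed receptors there to 0.45. With at most 10% mitochondrial UMIs, the summed ligands were at -0.46 in myeloid cells, 2.47 in endothelial cells (8 and 9 UMIs) and 1.78 in hepatocytes, and Tox in hepatocytes turned to -0.59, Havcr2 in T/NK-like cells to 0.60 (22 and 5 UMIs), Havcr2 in dendritic-like cells to 0.079 and Tox in plasmacytoid-like cells to -0.40. Subtracting free RNA and scaling up what was left turned Tox in hepatocytes to -1.30, against 0.82 without the scaling, since 86.6% of WT and 41.5% of N-LKO hepatocyte UMIs counted as free. Equal class weights brought the summed ligands in myeloid cells to -0.018. With mixed clusters counted, the summed receptors in lymphocytes were at -0.90 and the summed ligands in endothelial cells at 1.58. With the Eda-led cluster counted as hepatocytes their summed ligands were at 1.21.

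Counts of members past 2-fold moved as well. The members measured and the share of all genes past 2-fold are given only for the main setting. The counts below therefore cannot be read as changes in the members. With a minimum of 500 UMIs 2 members were lower in lymphocytes and 6 higher in hepatocytes. With 2000 UMIs 2 were lower in lymphocytes, 1 higher and 2 lower in myeloid cells, 2 higher in endothelial cells and 2 in hepatocytes, and 14 pairs of a member and a class were past 2-fold. With at most 10% mitochondrial UMIs 0 were lower in lymphocytes, 1 was higher and 1 lower in myeloid cells, 1 was higher in endothelial cells, and 11 pairs were past 2-fold. Without doublet removal 2 were higher in hepatocytes, and in marker-gated cells 0 were higher in lymphocytes. After free RNA subtraction 0 were higher and 2 lower in lymphocytes, 1 lower in endothelial cells and 3 lower in hepatocytes, and without scaling up the rest these were 0, 2, 1 and 1, with 3 higher in hepatocytes. With mixed clusters counted 0 were higher in lymphocytes and 3 in endothelial cells. With lymphocyte clusters that carry Eda-led genes counted 0 were higher and 2 lower in lymphocytes. With the Eda-led cluster among hepatocytes 4 were higher and 1 lower there. The cause of these changes was not tested, beyond the fewer cells that the stricter limits leave. Leaving out a replicate could not be tried with 1 library per group. Depth limits Pdcd1, Tigit, Lag3 and Pdcd1lg2 most, with at most 190 UMIs each over both libraries.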

Other observations

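Stellate-like cells, the vitamin A storing pericytes of the sinusoid, numbered 908 in WT and 651 in N-LKO and held more Cd86 than endothelial-like cells did. Their Cd86 level was 116 CPM (99.9 to 133) in WT and 76.2 (61.1 to 93.8) in N-LKO, and the log2 ratio was -0.60 (-0.98 to -0.23). Tox was 63.2 CPM (51.7 to 76.4) there in WT and 229 (203 to 259) in N-LKO, and of the stellate-like cells with a Tox UMI 16.9% in WT and 16.4% in N-LKO also held a CD3 or T cell receptor UMI. Those shares were 3.76% and 5.35% in cells without Tox.

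The 1241 WT and 4069 N-LKO cells of mixed clusters entered no class, and they held 25.2% of the N-LKO Tox UMIs and 26.3% of the N-LKO Cd86 UMIs. Their levels in WT and N-LKO were 198 and 306 CPM for Tox, 208 and 139.8 for Cd86, 76.4 and 55.4 for Cd274, and 27.1 and 34.9 for Havcr2. Erythroid-like cells, 56 and 124 in number, had 8 and 25 UMIs of Cd86.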
